A study of Mus musculus with 24 samples.

Results

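The collagens are a family of secreted and membrane proteins built from chains that wind into a triple helix, and 42 of their genes were measured here among 18820 genes in all. A gene was taken as a member where a probe set (a group of short array probes read as 1 value) carried 1 gene symbol only and that symbol was a collagen chain's, Col followed by its type and chain number. Where a gene had 2 probe sets (Col5a1, Col6a5, Col6a6 and Col20a1), the one with the higher mean was used. The members fall into 11 fibrillar collagens, 8 basement membrane collagens and 23 others, among them 6 beaded filament chains of type VI and 8 fibril-associated chains. Of the 44 protein-coding collagen genes in RefSeq, Col7a1 and Col9a3 were represented only by probe sets with several symbols and were not used.

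The arrays came from 8-week-old male mice and from 2 kinds of sample, whole liver and hepatocytes isolated from liver, with 4 genotypes and 3 arrays in each of the 8 groups. The controls (NEMOf/f) carried the floxed allele of NEMO without knockout. In the other genotypes, Cre recombinase under albumin and alpha-fetoprotein regulatory elements (Alfp), active in liver parenchymal cells, deleted NEMO, the regulatory subunit of the IKK complex that activates NF-kappaB, or KEAP1, the protein that keeps the transcription factor NRF2 low, or both (the double knockout). Hepatocytes were obtained by collagenase perfusion, plated in medium with fetal calf serum and kept until the next day, so they had been in culture and freed from a collagen-containing matrix before RNA was made. Values are log2 levels after robust multi-array averaging; a difference of 1 is a 2-fold difference, and levels of different genes cannot be compared because each has its own probes. The labels give each array a mouse of its genotype and a replicate number, without saying that the mice of a group differ, so p-values measure the spread between these arrays.

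Fibrillar collagens (types I, II, III, V, XI, XXIV and XXVII) assemble into the banded fibres that give tissue its tensile strength, and types I and III are the main components of liver scar. Type IV forms the network of basement membranes, with types XV and XVIII attached to it, and type VI forms beaded filaments between cells and fibres. In liver, hepatic stellate cells and portal fibroblasts are the known main makers of fibrillar collagen, sinusoidal endothelium contributes type IV, and hepatocytes are a known source of type XVIII.

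In 4 of the 24 arrays other genes went against the labels, and the counts of called collagens are given with and without them. The array labelled liver control 3 read 9.17 for the NRF2 target Nqo1, against 4.71 and 5.37 in the other liver controls. The KEAP1 knockout livers read 8.60 to 9.01 and the double knockout livers 9.25, 9.36 and 9.25. For Slc7a11 this array read 9.29, against 2.63 and 2.42 in the other liver controls. The KEAP1 knockout livers read 7.82 to 8.53 for Slc7a11 and the double knockout livers 9.62 to 10.2. The array labelled liver double knockout 3 read 7.17 for the adipocyte gene Adipoq, against 2.26 to 2.76 on the other 23 arrays. Hepatocyte control 1 and hepatocyte double knockout 3 read 9.65 and 9.76 for the female transcript Xist, against 2.00 to 2.98 on the other 22 arrays, although all samples are labelled male. Ikbkg, the gene of NEMO, read 6.14 to 6.26 in NEMO knockout livers and 6.81 and 6.86 in the liver controls other than control 3, which read 6.40. It read 6.96 to 7.20 in KEAP1 knockout livers and 6.18, 6.47 and 6.31 in double knockout livers. Keap1 read 5.38 to 5.76 in KEAP1 knockout livers and 6.04 and 6.35 in the liver controls other than control 3, which read 5.88. The double knockout livers read 5.94, 5.75 and 5.82 for Keap1. In hepatocytes the Keap1 levels of the KEAP1 knockout (5.73 to 5.91) and control (5.90 to 6.32) arrays overlapped. Whether the probes lie in the deleted exons is not known here. Albumin and 6 other hepatocyte markers averaged 11.9 to 12.4 in liver and 12.4 to 12.6 in the isolated cells.

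With NEMO deleted, a small set of collagens rose together while most of the family lay near 0. In whole liver this was seen without the 4 arrays in doubt, where 11 of 42 collagens were higher than in control and 0 lower: type I (Col1a1, Col1a2), type III (Col3a1) and Col5a2 among the fibrillar chains, Col4a1 and Col4a2 of the basement membrane, and Col6a1, Col6a2, Col6a3, Col12a1 and Col14a1 among the others. A gene was called where limma's adjusted p was under 0.05 over all genes, and 12% of all genes were called in that fit. With all arrays, 0 of 42 were called by limma (1.33% of all genes), and 11 had an unadjusted p under 0.05, as did 18% of all genes. Leaving out liver control 3 alone gave 7 called collagens, and leaving out any other single control or NEMO knockout liver array gave 0. With all arrays kept, array weights also gave 7. The share of all genes called is not given for these fits, so their counts are not set against it. On liver control 3 each of the 11 collagens lay above both other controls, so its omission enlarges their difference. The 11 were called in a fit without this array, so that count partly follows from how they were chosen. It was not set against all genes. In isolated hepatocytes, 7 collagens were higher and 1 lower with all arrays (6.65% of all genes called) and 8 higher and 1 lower without the arrays in doubt (5.58%). The 7 were Col14a1, Col1a1, Col3a1, Col4a1, Col1a2, Col6a3 and Col4a2; Col6a2 joined them in the smaller set of arrays (without those in doubt), and the lower gene was Col18a1. Within a tissue the 3 knockouts are compared with the same control arrays, so their differences from control are not independent of each other.

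By class, 4 of 11 fibrillar, 2 of 8 basement membrane and 5 of 23 other collagens were called higher in NEMO knockout liver without the arrays in doubt. The median change was 0.18 for fibrillar, 0.04 for basement membrane and -0.10 for other collagens, beside -0.05 over all genes, so no class moved as a whole. The 6 chains of type VI had a median of 0.66, with 3 called. In hepatocytes with all arrays the medians were 0.00, -0.20 and -0.03 beside -0.02 over all genes, with 3 fibrillar, 2 basement membrane and 2 other collagens called higher. In the smaller set of arrays they were 0.02, -0.11 and 0.05 beside -0.02, with 3, 2 and 3 called higher.

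**Figure D1:**
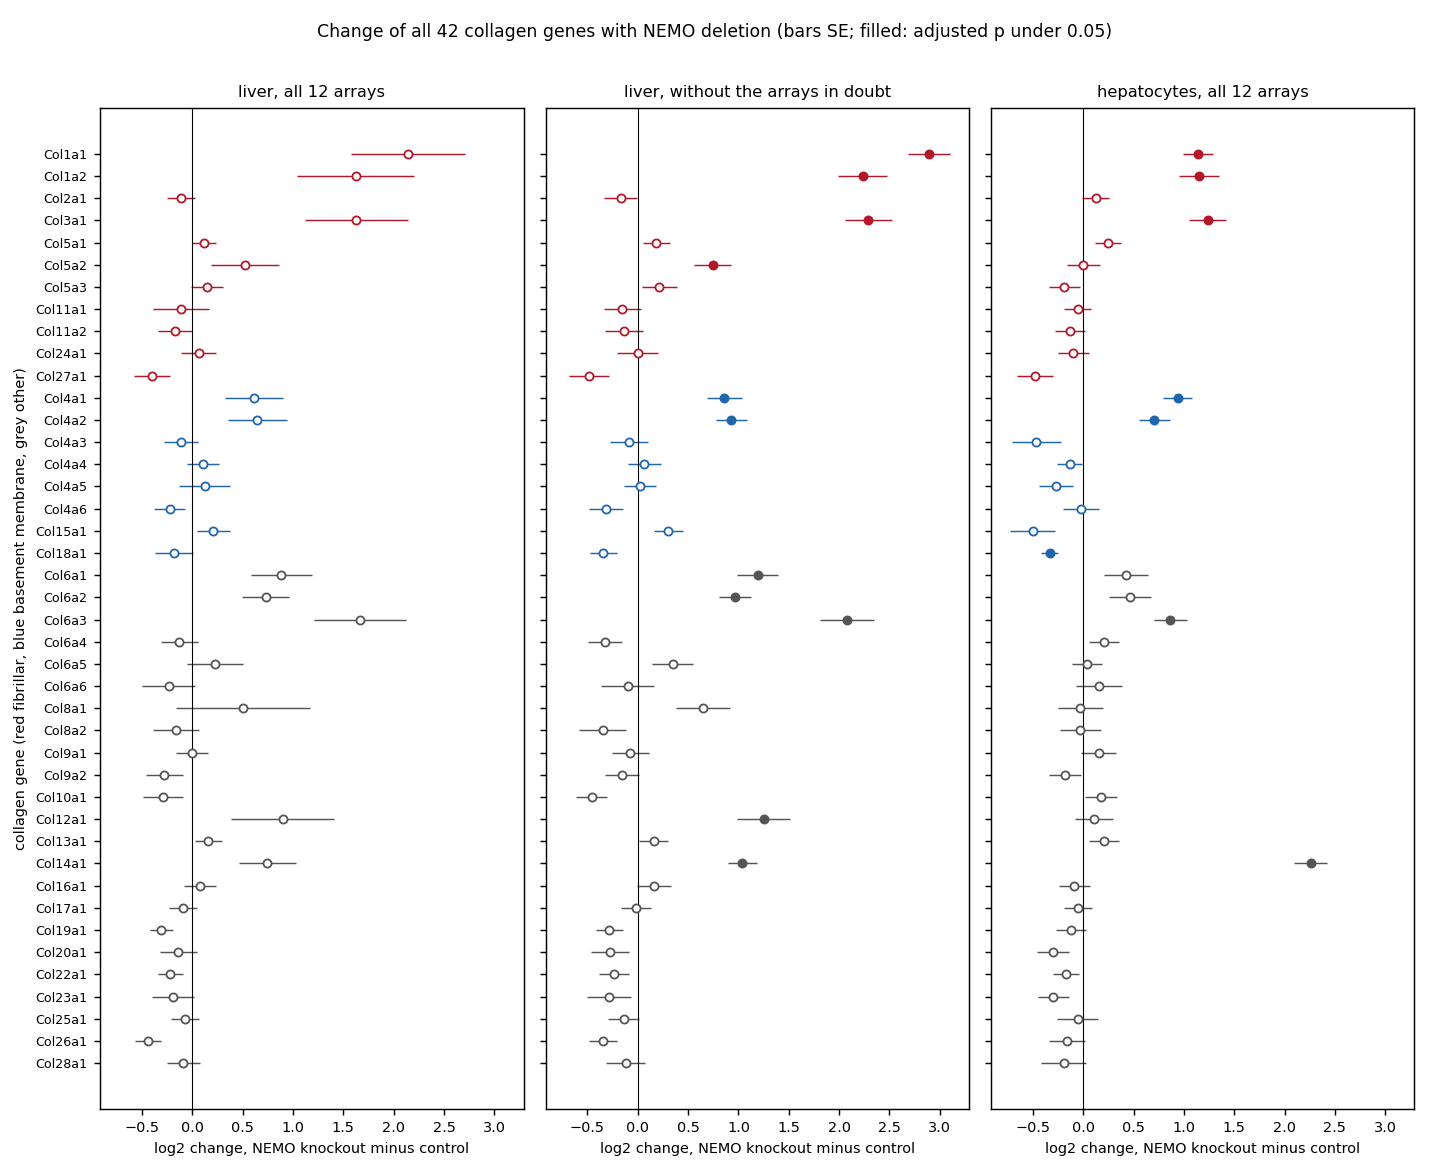
Change in log2 level (horizontal axis, NEMO knockout minus control) of each of the 42 collagen genes (vertical axis), in liver with all arrays, in liver without the arrays in doubt, and in hepatocytes with all arrays. Points are limma estimates, bars are standard errors, and filled points have an adjusted p under 0.05; 0, 11 and 8 points are filled, and most others lie near 0.

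Col1a1 encodes the chain present in 2 copies in each type I molecule and Col1a2 the chain present in 1 copy. In liver, Col1a1 read 5.38, 5.52 and 7.70 on the control arrays, 6.74, 6.61 and 6.99 with KEAP1 deleted, 8.33, 7.89 and 8.81 with NEMO deleted, and 7.66, 7.70 and 9.39 with both deleted. The value 7.70 among the controls is that of control 3, which lay above every KEAP1 knockout array and among the double knockout arrays; all 3 NEMO knockout arrays lay above all controls. Leaving out the arrays in doubt, Col1a1 was higher by 2.89 ± 0.21 (SE) in NEMO knockout liver (7.42-fold, limma adjusted p = 2.41e-05), by 1.33 ± 0.21 in KEAP1 knockout liver (adjusted p = 0.00376) and by 2.23 ± 0.23 in double knockout liver (adjusted p = 0.000153). With all arrays the same differences were 2.14 ± 0.57, 0.58 ± 0.57 and 2.05 ± 0.57 (adjusted p = 0.0852, 0.801 and 0.134). Col1a2 read 5.45, 5.76 and 7.45 in control liver, 6.67, 6.37 and 6.74 with KEAP1 deleted, 7.87, 7.28 and 8.37 with NEMO deleted and 7.25, 7.14 and 9.33 with both deleted. Control 3 lay above all KEAP1 knockout arrays and above 1 of the NEMO knockout arrays. Its NEMO knockout difference was 2.23 ± 0.24 without the arrays in doubt (adjusted p = 0.000295) and 1.62 ± 0.58 with all arrays (adjusted p = 0.175).

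In hepatocytes, Col1a1 read 4.82, 4.92 and 5.11 in controls, 5.34, 5.42 and 5.37 with KEAP1 deleted, 6.11, 5.95 and 6.19 with NEMO deleted, and 5.83, 6.40 and 5.90 with both deleted. All arrays with NEMO deleted lay above all arrays with NEMO intact. The difference from control was 1.14 ± 0.15 in the NEMO knockout (2.20-fold, limma adjusted p = 0.000509) and 1.10 ± 0.15 in the double knockout (adjusted p = 0.000403), and both calls held with any single array of the groups compared left out. In the smaller set of arrays these differences were 1.07 ± 0.17 and 1.10 ± 0.19 (adjusted p = 0.00286 and 0.00251). In the KEAP1 knockout it was 0.43 ± 0.15 and was not called (adjusted p = 0.203). In hepatocytes Col1a2 read 4.11, 4.53 and 4.86 in controls, 5.88, 5.38 and 5.69 with NEMO deleted and 5.55, 5.74 and 5.41 with both deleted. It was higher by 1.15 ± 0.20 and 1.07 ± 0.20 in the NEMO and double knockouts (adjusted p = 0.00297 and 0.00332), and by 0.95 ± 0.19 and 0.95 ± 0.21 in the smaller set (adjusted p = 0.0108 and 0.0124).

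Col3a1 encodes the single chain of type III collagen, which is laid down with type I in early scar. In liver it read 6.02, 5.87 and 7.92 in controls, 7.23, 6.80 and 7.22 with KEAP1 deleted, 8.26, 7.70 and 8.74 with NEMO deleted, and 7.71, 7.73 and 9.14 with both deleted. Apart from control 3, every knockout liver lay above both controls. Without the arrays in doubt the differences were 2.29 ± 0.23, 1.14 ± 0.23 and 1.78 ± 0.26 in the NEMO, KEAP1 and double knockouts (limma adjusted p = 0.000227, 0.0161 and 0.00149); with all arrays none was called (adjusted p = 0.129, 0.816 and 0.143). In hepatocytes Col3a1 read 4.68, 5.08 and 4.52 in controls and 4.71, 4.81 and 4.63 with KEAP1 deleted, but 6.09, 5.88 and 6.01 with NEMO deleted and 6.02, 6.22 and 5.52 with both deleted. The KEAP1 knockout and control hepatocytes overlapped, and the NEMO and double knockouts lay above both, by 1.24 ± 0.18 and 1.16 ± 0.18 over control (adjusted p = 0.00109 and 0.0011). The same differences were 1.20 ± 0.17 and 1.32 ± 0.19 with the smaller set of arrays (adjusted p = 0.00157 and 0.000892).

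The promoters of Col1a2 and Col3a1, whose levels moved together, are printed because they differ in G and C content and in which of the searched motifs they hold. Their letters were not aligned. The 250 bases before each start were taken from RefSeq (GRCm38.p6), which had 37 such windows for 34 of the 42 collagens and 32807 in all. Of the 13 collagens called in any comparison with either set of arrays, 9 had one. Col1a1, Col5a2, Col12a1 and Col14a1 had none. The 5 short motifs searched on both strands are in capitals: CCAAT, the GC box GGGCGG, the TATA-box form TATAAA, the AP-1 site TGACTCA, and TGACNNNGC, the core of the element that NRF2 binds. A match describes the letters and shows no binding. The Col1a2 window is chr6:4505368-4505617 on the plus strand (62% G and C) and holds 2 GC boxes and a CCAAT beginning 109 bases before the start. The Col3a1 window is chr1:45311288-45311537 on the plus strand (35.2% G and C) and holds a single TATAAA beginning 117 bases before the start.
Col1a2: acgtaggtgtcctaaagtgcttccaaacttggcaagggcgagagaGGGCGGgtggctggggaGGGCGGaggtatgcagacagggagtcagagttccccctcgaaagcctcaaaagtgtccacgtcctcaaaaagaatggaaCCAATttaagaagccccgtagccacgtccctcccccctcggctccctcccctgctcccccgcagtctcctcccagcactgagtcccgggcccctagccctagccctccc
Col3a1: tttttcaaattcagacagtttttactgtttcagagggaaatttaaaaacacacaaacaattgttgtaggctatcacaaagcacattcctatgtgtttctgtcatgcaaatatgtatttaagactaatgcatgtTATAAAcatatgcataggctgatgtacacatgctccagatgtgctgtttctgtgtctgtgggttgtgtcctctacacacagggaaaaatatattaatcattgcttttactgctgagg
Among all windows 33.8% held CCAAT, 32.7% GGGCGG, 12.4% TATAAA, 4.47% TGACTCA and 10.2% TGACNNNGC. Among the 37 collagen windows the counts were 12, 21, 5, 1 and 5.

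Of the remaining fibrillar collagens, Col5a2, a chain of the type V collagen that sits in the core of type I fibrils, read 4.05, 4.21 and 4.78 in control liver and 5.11, 4.64 and 4.88 with NEMO deleted. It was higher by 0.74 ± 0.18 without the arrays in doubt (limma adjusted p = 0.0203) and by 0.53 ± 0.34 with all arrays (adjusted p = 0.436). Its partner Col5a1 was not called in any of the 6 comparisons with control under either set of arrays. Col27a1, a fibrillar chain best known from cartilage, went the other way and was called lower in double knockout hepatocytes. It read 5.37, 5.84 and 5.95 in control hepatocytes, 5.87, 5.83 and 5.77 with KEAP1 deleted, 5.21, 5.46 and 5.05 with NEMO deleted and 5.38, 4.83 and 5.07 with both deleted. The double knockout was lower than control by 0.63 ± 0.18 (adjusted p = 0.0417), with control 1 and double knockout 1 level, and the call was lost when any 1 of 4 arrays was left out, which were replicates 2 and 3 of both groups (adjusted p up to 0.184). Leaving out all arrays in doubt, Col27a1 was lower by 0.79 ± 0.19 (adjusted p = 0.0232). In NEMO knockout hepatocytes it was called when control 1 alone was left out. In liver it read 5.30, 5.67 and 5.24 in controls. With NEMO deleted it read 4.99, 5.17 and 4.84 there, and with both deleted 5.17, 4.92 and 5.04. These knockout arrays lay below all liver controls, but neither difference was called with either set of arrays. The cartilage chains Col2a1, Col11a1 and Col11a2 and the chain Col24a1 were not called in any comparison with either set of arrays.

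Type IV collagen has 6 chains, and of these the widespread pair Col4a1 and Col4a2 rose with NEMO deletion. In hepatocytes Col4a1 read 4.56, 4.79 and 4.70 in controls, 4.93, 5.03 and 4.75 with KEAP1 deleted, 5.80, 5.55 and 5.51 with NEMO deleted and 5.56, 5.85 and 5.40 with both deleted. The 6 arrays with NEMO deleted lay above the 6 with NEMO intact. The difference from control was 0.94 ± 0.15 in the NEMO knockout and 0.92 ± 0.15 in the double knockout (limma adjusted p = 0.00156 and 0.00121), and both calls held with any single array left out; without the arrays in doubt the values were 0.87 ± 0.16 and 0.96 ± 0.17 (adjusted p = 0.00634 and 0.00379). Col4a2 read 4.96, 4.68 and 5.00 in controls, 5.71, 5.56 and 5.49 with NEMO deleted and 5.45, 5.73 and 5.64 with both deleted, again with no overlap. For Col4a2 the difference was 0.71 ± 0.16 and 0.73 ± 0.16 (adjusted p = 0.015 and 0.00942), and 0.74 ± 0.19 and 0.75 ± 0.20 in the smaller set of arrays (adjusted p = 0.0376 and 0.0383). The Col4a2 call was lost without control 2 or NEMO knockout 1 in the first comparison (adjusted p up to 0.0674) and without double knockout 2 in the second (adjusted p = 0.0522).

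In liver, Col4a1 read 5.75, 5.65 and 6.44 in controls, 6.29, 6.44 and 6.93 with NEMO deleted and 6.59, 6.48 and 7.60 with both deleted. Col4a2 read 5.42, 5.44 and 6.28, then 6.19, 6.22 and 6.65, and 6.28, 6.05 and 7.26 in the same groups. For both chains control 3 reached the lower NEMO knockout arrays. In the fit without the arrays in doubt, Col4a1 was higher by 0.86 ± 0.18 and Col4a2 by 0.93 ± 0.15 in the NEMO knockout (limma adjusted p = 0.00814 and 0.00234), and by 0.84 ± 0.19 and 0.74 ± 0.17 in the double knockout (adjusted p = 0.0182 and 0.0169). In the KEAP1 knockout neither was called. The difference between the 2 chains on the same array, Col4a1 minus Col4a2, averaged 0.23 ± 0.09 (SD, n = 3) in control liver and 0.20 ± 0.09 in NEMO knockout liver, less than 1 SD apart. The starts of Col4a1 and Col4a2 lie on opposite strands of chromosome 8, 21 bases apart. By these coordinates the genes overlap at their starts, so the window before each start lies inside the other gene. The Col4a2 window is 1 of 5 among 37 collagen windows with TGACNNNGC, which 10.2% of all windows hold. Its match begins 74 bases before the start. The other 4 chains, Col4a3, Col4a4, Col4a5 and Col4a6, which make the specialised basement membranes of kidney and other organs, were not called in any comparison with either set of arrays. Over all 24 arrays Col4a3 lay between 3.45 and 4.64, Col4a4 between 3.72 and 4.24, Col4a5 between 3.10 and 4.45 and Col4a6 between 2.82 and 3.65. A guide to background is the 95th percentile of the group means of olfactory receptor genes, 3.25 to 3.53 by group: Col4a6 and the cartilage chain Col9a1 lay at or under it in all 8 groups, while 34 collagens lay above it in all 8.

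Col18a1, the chain whose end is released as endostatin, was lower in knockout hepatocytes. It read 8.94, 9.05 and 9.05 in control hepatocytes, 8.66, 8.61 and 8.62 with KEAP1 deleted, 8.64, 8.63 and 8.78 with NEMO deleted and 8.64, 8.42 and 8.67 with both deleted. All 9 knockout arrays lay below all 3 controls, within a narrow range. Against control it fell by 0.39 in the KEAP1 knockout, by 0.33 in the NEMO knockout and by 0.44 in the double knockout (SE 0.08 in each, limma adjusted p = 0.0381, 0.0317 and 0.00491), and without the arrays in doubt by 0.42, 0.37 and 0.52 (adjusted p = 0.0408, 0.0359 and 0.00612). The double knockout call held with any single array left out. The KEAP1 knockout call was lost without any 1 of its 6 arrays (adjusted p up to 0.142), and the NEMO knockout call without control 2, control 3, NEMO knockout 1 or NEMO knockout 2 (adjusted p up to 0.114). In liver it read 9.01, 8.79 and 8.42 in controls and 8.45, 8.30 and 7.76 with both genes deleted; the difference fell by 0.53 without the arrays in doubt (SE 0.15, adjusted p = 0.0437) and by 0.57 with all arrays (SE 0.19, adjusted p = 0.148). Col15a1, the related chain of vessel basement membranes, read 6.53, 6.19 and 5.46 in control hepatocytes and 5.44, 5.79 and 5.45 with NEMO deleted, which overlap. It was not called in any comparison with either set of arrays, but was called in NEMO and in double knockout hepatocytes against control when hepatocyte control 3 alone was left out. The promoter of Col18a1 is printed as that of a member that was lower in all 3 knockouts of hepatocytes: the window before its more upstream start, chr10:77166531-77166780 on the minus strand (62% G and C), holds 3 GC boxes and a CCAAT read on the opposite strand, whereas the window before its other start holds none of the 5 motifs.
Col18a1: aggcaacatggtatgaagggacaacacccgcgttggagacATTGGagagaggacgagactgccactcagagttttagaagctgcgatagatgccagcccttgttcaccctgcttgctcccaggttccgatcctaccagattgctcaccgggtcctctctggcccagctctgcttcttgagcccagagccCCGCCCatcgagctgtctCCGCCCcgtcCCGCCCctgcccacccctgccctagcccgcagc

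Type VI collagen is assembled from Col6a1, Col6a2 and 1 further chain, most often Col6a3. In liver Col6a3 read 4.54, 4.64 and 5.83 in controls, 5.42, 4.98 and 5.71 with KEAP1 deleted, 6.66, 6.13 and 7.19 with NEMO deleted and 5.55, 5.72 and 7.26 with both deleted. All NEMO knockout arrays lay above all controls, and of the other arrays double knockout 3, one of those in doubt, lay as high. Col6a1 read 5.07, 5.18 and 6.05 in controls and 6.41, 5.95 and 6.59 with NEMO deleted, and Col6a2 read 4.63, 4.76 and 5.41 and then 5.64, 5.44 and 5.90. Control 3 overlapped the NEMO knockout for Col6a1 and came just under it for Col6a2. Leaving out the arrays in doubt, the NEMO knockout was higher by 2.08 ± 0.27 for Col6a3, 1.19 ± 0.21 for Col6a1 and 0.97 ± 0.16 for Col6a2 (limma adjusted p = 0.000641, 0.00315 and 0.00235). On all arrays the differences were 1.66 ± 0.46, 0.88 ± 0.31 and 0.73 ± 0.24 (adjusted p = 0.0917, 0.162 and 0.141). In hepatocytes Col6a3 read 3.74, 3.60 and 3.76 in controls and 4.49, 4.58 and 4.63 with NEMO deleted, a difference of 0.87 ± 0.17 (adjusted p = 0.00611) whose call held with any single array left out, and of 0.89 ± 0.18 in the smaller set of arrays (adjusted p = 0.0117). In double knockout hepatocytes it read 4.27, 3.98 and 3.69 and was not called against control. The other type VI chains, Col6a4, Col6a5 and Col6a6, were not called with all arrays or without those in doubt. The 2 probe sets of Col6a5 differed in NEMO knockout liver with all arrays. The dimmer one, not used here, was 0.93 higher than in control and the one used 0.22 higher. In hepatocytes the same differences were -0.17 and 0.04. The dimmer probe set was not tested on its own. Col6a3 minus Col6a1 on the same array averaged -0.43 ± 0.19 (SD, n = 3) in control and 0.34 ± 0.22 in NEMO knockout liver. The Col6a1 window, chr10:76726045-76726294 on the minus strand, is shown because it is the one collagen window with the AP-1 letters TGACTCA, which begin 90 bases before the start.
Col6a1: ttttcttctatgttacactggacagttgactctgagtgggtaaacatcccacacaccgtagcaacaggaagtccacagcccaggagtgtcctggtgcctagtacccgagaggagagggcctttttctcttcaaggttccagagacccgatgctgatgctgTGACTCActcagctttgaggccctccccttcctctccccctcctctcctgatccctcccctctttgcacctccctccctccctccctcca

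Col14a1 encodes type XIV collagen, a fibril-associated chain that coats type I fibrils, and it had the largest change of the family in hepatocytes. It read 4.61, 5.23 and 4.79 in control hepatocytes, 6.18, 6.11 and 5.85 with KEAP1 deleted, 7.27, 6.89 and 7.25 with NEMO deleted and 7.06, 6.85 and 6.94 with both deleted. The 3 control arrays lay below all others, the KEAP1 knockout arrays in between, and the NEMO and double knockout arrays overlapped at the top. The differences from control were 1.17 ± 0.16 (KEAP1 knockout), 2.26 ± 0.16 (NEMO knockout, 4.79-fold) and 2.07 ± 0.16 (double knockout), with limma adjusted p = 0.00213, 9.91e-06 and 7.96e-06, and all of these calls held with any single array left out. In the fit without those in doubt they were 1.04 ± 0.17, 2.13 ± 0.17 and 1.95 ± 0.19 (adjusted p = 0.01, 5.37e-05 and 7.36e-05). In liver Col14a1 read 7.58, 7.57 and 8.45 in controls and 8.57, 8.44 and 8.83 with NEMO deleted. In the smaller set of arrays the liver differences were 1.04 ± 0.14 (NEMO), 0.57 ± 0.14 (KEAP1) and 0.71 ± 0.15 (double), with adjusted p = 0.00078, 0.0383 and 0.014; with all arrays none was called.

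Col12a1, another fibril-associated chain, read 3.19, 3.57 and 4.44 in control liver and 4.80, 4.01 and 5.07 with NEMO deleted, and was higher by 1.25 ± 0.26 without the arrays in doubt (limma adjusted p = 0.00926) and by 0.90 ± 0.51 with all arrays (adjusted p = 0.379). Double knockout 3, the liver array with adipocyte transcripts, read 6.43 for Col12a1 and 7.23 for Col8a1, a short chain of vessel walls, beside 4.28 and 4.28, and 4.11 and 3.85, on the other 2 double knockout arrays. The remaining fibril-associated chains (Col9a1, Col9a2, Col16a1, Col19a1, Col20a1 and Col22a1), the short chains Col8a1, Col8a2 and Col10a1, the transmembrane chains Col13a1, Col17a1, Col23a1 and Col25a1, and Col26a1 and Col28a1 were not called in any comparison with either set of arrays.

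**Figure D2:**
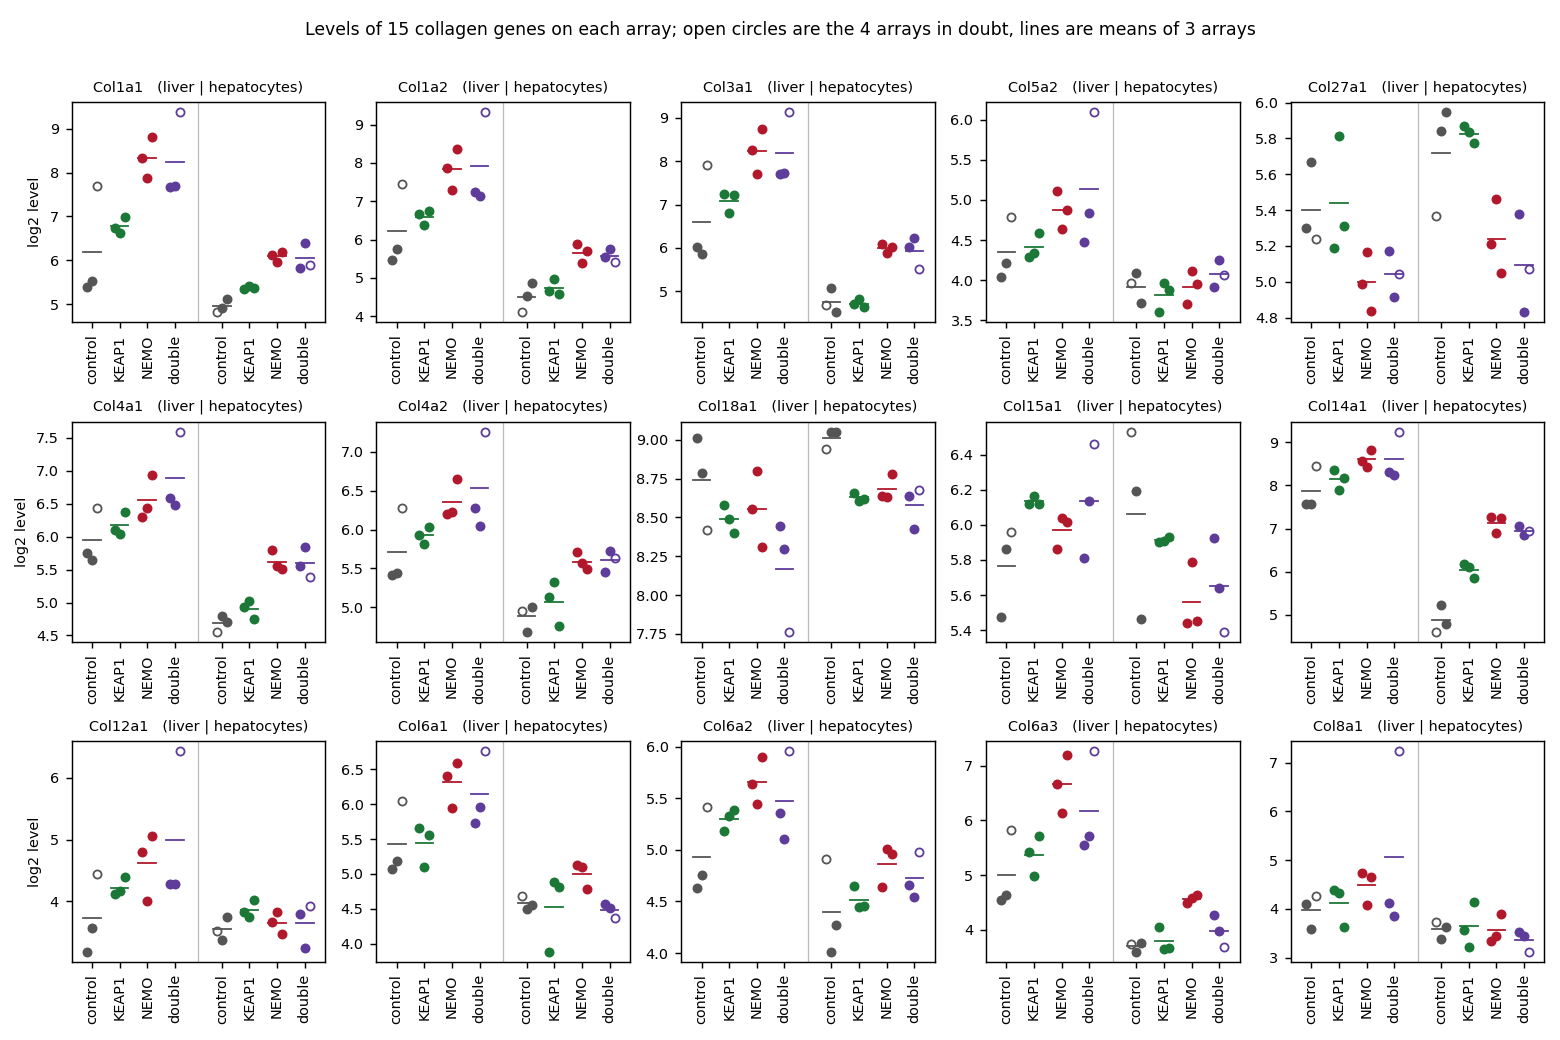
Log2 level (vertical axis) of 15 collagen genes on each array, grouped by genotype (horizontal axis) in liver, left of the grey line, and in hepatocytes, right of it. Circles are single arrays, open where the array is in doubt, and lines are means of 3 arrays; the open control circle in liver lies above the other 2 controls for Col1a1, Col1a2 and Col3a1.

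KEAP1 deletion alone gave fewer called collagens than NEMO deletion where any were called, and fewer called genes of any kind. In liver without the arrays in doubt 5.26% of all genes were called, against 12% with NEMO deleted. The shares in hepatocytes with all arrays were 1.87% and 6.65%. In liver, 0 of 42 were called with all arrays (0% of all genes; 2 with an unadjusted p under 0.05, as had 7.69% of all genes), and 5 were higher and 0 lower without the arrays in doubt (5.26%): Col1a1, Col3a1, Col1a2, Col14a1 and Col6a2, the last by 0.60 ± 0.16 (limma adjusted p = 0.0496). In hepatocytes, Col14a1 was higher and Col18a1 lower, both with all arrays (1.87% of all genes) and without those in doubt (1.82%).

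In the double knockout liver, 0 collagens were called with all arrays (0.00531% of all genes); 18 had an unadjusted p under 0.05, as did 20.7% of all genes. With those in doubt left out, 7 were higher and 1 lower (9.2%): Col1a1, Col3a1, Col1a2, Col14a1, Col4a2, Col4a1 and Col6a3 rose and Col18a1 fell, and leaving out liver control 3 alone gave 10. Same-numbered control and double knockout livers deviated together. Replicate 3 of both groups is an array in doubt, so a block for the replicate number also takes up what these arrays share. With this block limma called 7 higher and 1 lower with all arrays, a result not independent of leaving those arrays out. The share of all genes called is not given for the block or for leaving out control 3 alone. In hepatocytes, 6 were higher and 2 lower with all arrays (9.72%) and without those in doubt (9.23%); the 6 were Col14a1, Col1a1, Col3a1, Col4a1, Col1a2 and Col4a2, and the lower were Col18a1 and Col27a1.

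**Figure D3:**
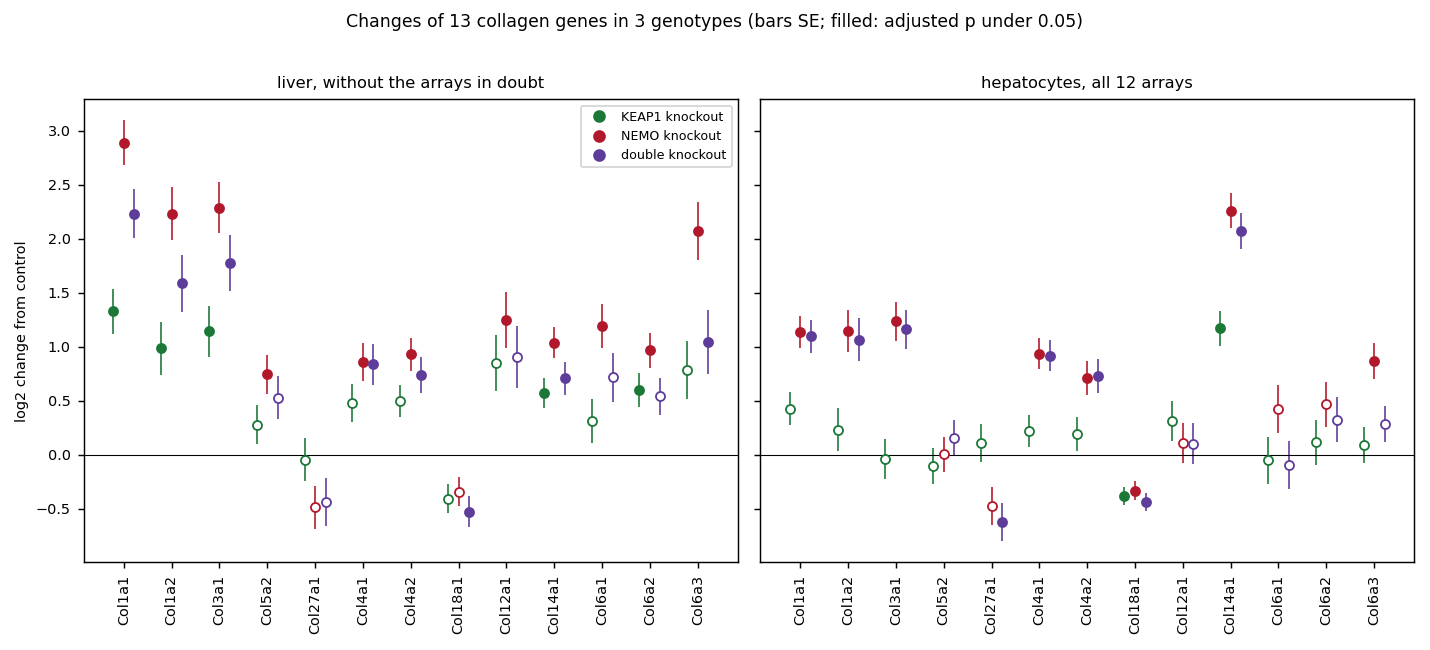
Change from control in log2 level (vertical axis) of the 13 collagen genes called in any comparison with either set of arrays (horizontal axis), in the KEAP1, NEMO and double knockouts, for liver without the arrays in doubt and for hepatocytes with all arrays. Points are limma estimates, bars are standard errors, and filled points have an adjusted p under 0.05; Col14a1 has the highest points in hepatocytes and Col1a1 in liver, and the 3 genotypes of a panel share the same controls.

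The comparisons between knockouts ask what KEAP1 deletion adds to NEMO deletion and the reverse. Double against NEMO knockout gave 0 called collagens in liver with all arrays (1.05% of all genes called; 0 collagens and 11.9% of all genes with an unadjusted p under 0.05) and without those in doubt (3.46%; 7 collagens, all lower in the double knockout, and 14.8% of all genes). The smallest adjusted p there was that of Col6a3, at a difference of -1.03 ± 0.27 (limma adjusted p = 0.0623), followed among the members named above by Col1a1 at -0.66 ± 0.21 (adjusted p = 0.129). In hepatocytes the same comparison gave 0 called with all arrays (3.32%; 4 collagens and 16.2% of all genes with an unadjusted p under 0.05) and without those in doubt (3.8%; 3 and 16.6%). Col1a1, Col3a1, Col4a1 and Col14a1 differed there by -0.04 ± 0.15, -0.07 ± 0.18, -0.02 ± 0.15 and -0.19 ± 0.16 with all arrays.

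Double against KEAP1 knockout, which adds NEMO deletion, gave 0 called in liver with all arrays (0% of all genes; 8 collagens and 7.59% of all genes with an unadjusted p under 0.05) and without those in doubt (0.0531%; 5 and 7.35%). In hepatocytes 5 were higher and 1 lower with all arrays (2.75%) and without those in doubt (3.78%). Col3a1 was higher by 1.20 ± 0.18, Col14a1 by 0.90 ± 0.16, Col1a2 by 0.83 ± 0.20, Col4a1 by 0.70 ± 0.15 and Col1a1 by 0.67 ± 0.15, and Col27a1 differed by -0.73 ± 0.18 with all arrays (limma adjusted p = 0.00433, 0.011, 0.0395, 0.0217, 0.0333 and 0.0458). In the smaller set of arrays these were 1.40, 0.91, 0.91, 0.81, 0.74 and -0.72, all called. Of these, Col3a1 alone kept its call with any single array left out. The count was 2 without KEAP1 knockout 1, 1 without KEAP1 knockout 3 and 2 without double knockout 2.

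Whether the NEMO change differed with KEAP1 absent was tested by the interaction, the change in the double knockout less the summed changes of the single knockouts. In liver no collagen was called with all arrays (0.0106% of all genes; 0 collagens and 5.06% of all genes with an unadjusted p under 0.05). Without the arrays in doubt (0.345% of all genes) Col1a1 was called, at -1.99 ± 0.29 (limma adjusted p = 0.0175): its change from control in the double knockout was smaller than the sum of both single changes. Col3a1, Col1a2, Col6a3 and Col14a1 had values of -1.65 ± 0.33, -1.63 ± 0.34, -1.82 ± 0.38 and -0.90 ± 0.20 and were not called (adjusted p = 0.0536, 0.0577, 0.0577 and 0.0661). In hepatocytes no collagen was called with all arrays (0.0425%; 4 collagens and 9.93% of all genes with an unadjusted p under 0.05) or without those in doubt (0.117%; 2 and 8.65%). Col14a1 came nearest, at -1.36 ± 0.23 with all arrays (adjusted p = 0.0514) and -1.22 ± 0.24 without those in doubt (adjusted p = 0.124), and it was the 1 collagen called when control 2 was left out.

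Control hepatocytes were compared with control liver to see which collagens were lower once hepatocytes had been isolated. With all arrays 5 collagens were lower and 0 higher in hepatocytes (5.13% of all genes), and 3 were lower without the arrays in doubt (3.06%). Col14a1 differed by -2.99 ± 0.24 and Col4a1 by -1.26 ± 0.24 with all arrays (limma adjusted p = 1.39e-07 and 0.00218), and by -2.56 ± 0.18 and -0.95 ± 0.18 without those in doubt. Col3a1 differed by -1.85 ± 0.41 (adjusted p = 0.00789), Col1a2 by -1.72 ± 0.46 (adjusted p = 0.0327) and Col6a3 by -1.30 ± 0.37 (adjusted p = 0.0403); without the arrays in doubt Col3a1 differed by -1.14 ± 0.24 (adjusted p = 0.00903) and the latter 2 were not called. Without liver control 3 only Col14a1 and Col4a1 stayed called, and without hepatocyte control 1 the called ones were Col14a1, Col4a1 and Col3a1. Col18a1 was at 8.74 ± 0.30 (SD, n = 3) in control liver and 9.01 ± 0.06 in control hepatocytes and was not called.

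The NEMO change itself was compared between tissues. With all arrays no collagen was called (0.0691% of all genes; 2 collagens and 9.46% of all genes with an unadjusted p under 0.05). Without the arrays in doubt (0.0638% of all genes) Col1a1 was called: its NEMO change was larger in liver than in hepatocytes by 1.82 ± 0.28 (limma adjusted p = 0.016). Col14a1 leaned the other way, with a change smaller in liver by 1.09 ± 0.23 (adjusted p = 0.081), and with all arrays -1.52 ± 0.34 (adjusted p = 0.112); it was the collagen called when hepatocyte control 2 was left out.

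Genes that fold, process, bind or sense collagen were read from 4 lists of 51 genes, 46 of them measured. In NEMO knockout liver without the arrays in doubt 22 were higher and 2 lower, beside 12% of all genes called. The median change of the 46 was 0.49, beside -0.05 over all genes. With all arrays 1 was higher, beside 1.33% of all genes called: Loxl4, a crosslinking enzyme (1.59 ± 0.32, limma adjusted p = 0.0344). Of the 17 folding genes, 5 were higher and 1 lower, led by P3h2, a prolyl 3-hydroxylase of collagen, at 1.63 ± 0.22 (adjusted p = 0.000866). Of the 11 processing and crosslinking genes, 5 were higher and 1 lower: the lysyl oxidases Lox and Loxl1, which crosslink fibres, by 1.95 ± 0.26 and 1.94 ± 0.17, and Pcolce, an enhancer of procollagen trimming, by 1.04 ± 0.14 (adjusted p = 0.000658, 9.44e-05 and 0.000943). The binding proteins had 7 of 9 higher, with the small proteoglycans Lum by 2.70 ± 0.36, Bgn by 1.61 ± 0.16, Dcn by 1.35 ± 0.14 and Ogn by 1.28 ± 0.16. Of the 9 receptors, 5 were higher. The lower genes, named after their values were seen, were Bmp1, the enzyme that trims procollagen ends (-0.40), and Mia3, a collagen export factor (-0.31).

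In NEMO knockout hepatocytes with all arrays 14 of the 46 were higher and 0 lower, beside 6.65% of all genes called. Without those in doubt 13 were higher and 0 lower, beside 5.58%. The median change was 0.27 with all arrays (-0.02 over all genes) and 0.28 without those in doubt. The proteoglycans led: Dcn was higher by 3.18 ± 0.25, Bgn by 2.86 ± 0.19 and Lum by 2.13 ± 0.20 (limma adjusted p = 1.46e-05, 5.22e-06 and 3.53e-05), and without the arrays in doubt by 2.93, 2.69 and 2.11. Dcn read 6.30 to 7.62 in control hepatocytes, 8.18 to 8.54 with KEAP1 deleted, 9.83 to 10.1 with NEMO deleted and 9.37 to 9.58 with both deleted, so its groups did not overlap. Sparc, a collagen-binding matrix protein, was higher by 2.26 ± 0.30 and the collagen uptake receptor Mrc2 by 1.01 ± 0.16. In the double knockout 16 were higher and 1 lower (Bmp1, named after its value was seen), beside 9.72% of all genes called. In the KEAP1 knockout 3 were higher, Bgn, Dcn and Sparc, beside 1.87%. In the smaller set of arrays the double knockout had 12 higher and 1 lower (9.23%) and the KEAP1 knockout 3 higher (1.82%). The interaction was called for Bgn in hepatocytes with all arrays, at -2.12 ± 0.26 (adjusted p = 0.0208), and in both tissues without those in doubt, at -1.65 ± 0.22 in liver and -1.90 ± 0.26 in hepatocytes (adjusted p = 0.0109 and 0.0176).

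Markers of stellate cells, endothelium and macrophages were higher in NEMO and double knockout hepatocytes, in which these collagens were higher. In bulk RNA, more cells of a type and more RNA per cell cannot be told apart. In hepatocytes with all arrays, 12 of 13 measured stellate cell markers were higher in the NEMO knockout, 10 in the double knockout and 4 in the KEAP1 knockout, with none lower (10, 9 and 3 without the arrays in doubt). Their mean level was 4.41 to 4.86 in controls, 5.07 to 5.27 with KEAP1 deleted, 5.96 to 6.17 with NEMO deleted and 5.58 to 5.72 with both deleted. The groups did not overlap. All 9 endothelial markers were higher in each of the 3 knockouts (mean level 5.53 to 6.44 in controls, 7.05 to 7.56, 7.45 to 7.83 and 7.73 to 7.93 in the KEAP1, NEMO and double knockouts), and all 7 macrophage markers in the NEMO and double knockouts (5.55 to 6.41 in controls, 7.43 to 7.86 and 7.89 to 8.32). Without the arrays in doubt the endothelial counts were 8 in the KEAP1 knockout and 9 in the others, and the macrophage counts 7, 7 and 0 in the NEMO, double and KEAP1 knockouts. The 7 hepatocyte markers had no call in the NEMO knockout. Over all genes 6.65% (NEMO), 9.72% (double) and 1.87% (KEAP1) were called with all arrays. Without those in doubt the shares were 5.58%, 9.23% and 1.82%. The part of these cells in the collagen changes of the hepatocyte samples was not tested.

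With all arrays, 12 of 13 stellate, 9 of 9 endothelial and 7 of 7 macrophage markers were lower in control hepatocytes than control liver. So were the 5 collagens, beside 5.13% of all genes called. Without the arrays in doubt the marker counts were 11, 9 and 4, beside 3.06%. In liver without the arrays in doubt, 7 of 13 stellate markers were higher in the NEMO knockout (12% of all genes called). So were Acta2 and Tagln, from the list of 4 measured myofibroblast and smooth muscle genes. The stellate list's mean was 6.02 and 6.40 on those 2 control arrays, 6.68 on control 3 and 7.05 to 7.30 in the NEMO knockout. The macrophage list stood at 7.02 and 7.07 on these controls, at 8.05 on control 3 and at 7.77 to 7.97 in the NEMO knockout, with 5 of 7 called. In the same order the endothelial list stood at 7.23 and 7.75, at 8.18 and at 7.88 to 7.98. The myofibroblast and smooth muscle list stood at 4.61 and 4.56, at 5.50 and at 5.37 to 5.60. In hepatocytes that list stood at 3.58 to 3.67 in controls and 4.12 to 4.56 with NEMO deleted. None of the 5 measured portal fibroblast markers was higher in any knockout hepatocytes (Gas1 was lower in the double knockout), and 1, Eln, was higher in NEMO knockout liver without the arrays in doubt. The part of these cells in the liver collagen changes was not tested. Adipocyte markers averaged 6.00 on double knockout 3 and 2.65 to 3.16 on the other liver arrays. Other lists were also highest on double knockout 3 of the 3 double knockout livers: cholangiocyte at 6.37 (4.04 and 4.12 on the other 2), myofibroblast and smooth muscle at 7.75 (5.55 and 5.65), portal fibroblast at 6.01 (4.55 and 4.65) and mesothelial at 4.77 (3.68 and 3.55). Col8a1 and each of the 11 collagens called higher in NEMO knockout liver without the arrays in doubt read highest on that array among all liver arrays. This was not set against all genes.

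**Figure D4:**
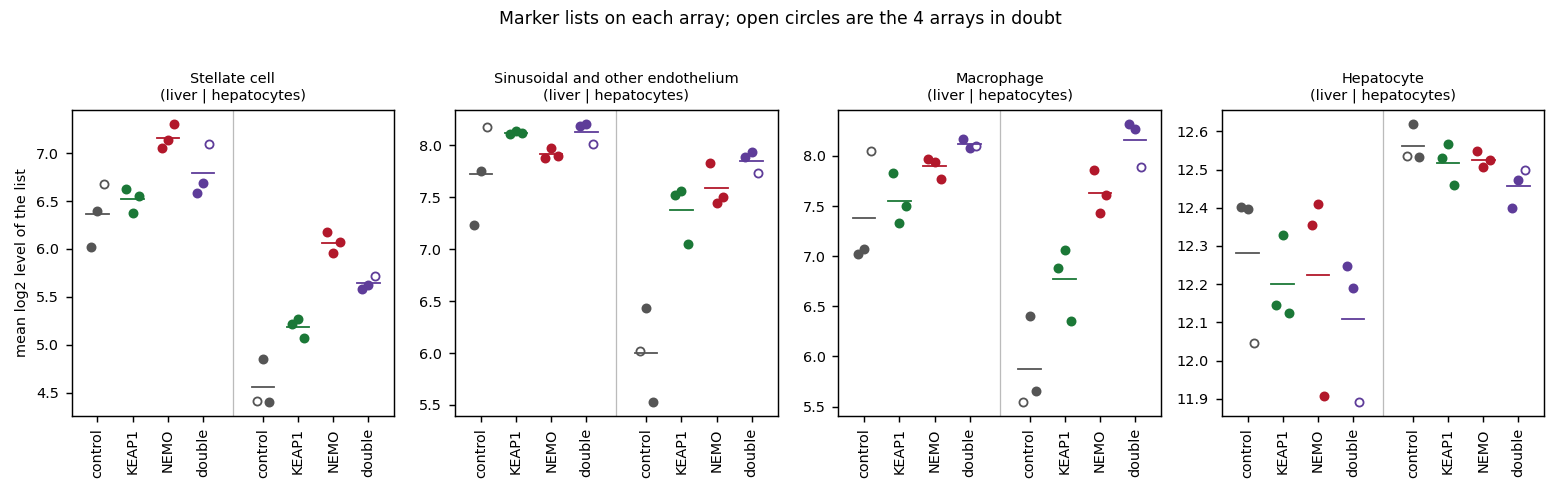
Mean log2 level (vertical axis) of the measured genes of 4 marker lists on each array, by genotype (horizontal axis) in liver, left of the grey line, and hepatocytes, right of it. Circles are single arrays, open where the array is in doubt, and lines are means of 3 arrays; the stellate list lies at 4.41 to 4.86 in control hepatocytes and 5.96 to 6.17 in NEMO knockout hepatocytes.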

How the data were processed

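Total RNA of 24 samples was measured on a mouse gene array. The authors' deposited values are log2 levels, normalized by RMA per the submitters' processing notes; array medians were 4.03 to 4.23. The labels give no scan dates or batches. Of 35556 probe sets, 21218 had 1 symbol, 1881 several, and 12457 were not listed with a gene; the brightest probe set per gene gave 18820 genes. The number of arrays limits the precision.

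Comparisons used limma 3.58.1 in R 4.3.3 (lmFit, eBayes with an intensity trend), on the 12 arrays of a tissue or on all 24 across tissues, with Benjamini-Hochberg adjustment over all genes and a threshold of 0.05. In all, 14 comparisons were made. Members and lists (making and binding genes, cell markers) were chosen with earlier results of these data known. Levels by array are given for collagens called with all arrays or without the 4 in doubt, and for the 3 of highest mean level in each tissue; uncalled type IV chains are given by range. Of making and binding genes, the 8 of smallest adjusted p in NEMO knockout liver and the 5 in each other comparison could be named.

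Alternatives left out the 4 arrays in doubt or each array of the groups compared, used array weights, the replicate block, only the groups compared, no trend, means of probe sets, genes above the olfactory receptor guide, and repeated quantile normalization. Same-numbered arrays deviated together in 1 pair of groups, control and double knockout liver (r = 0.115, 0.136 and 0.230 of deviations from group means). This pairing comes from the data, not the labels, and replicate 3 of both groups is an array in doubt.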

Additional observations from a re-analysis of the deposited data

Results flagged for a closer look

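For Col1a1, the test of a difference between groups passed in both of these cases without the 4 arrays in doubt. The liver interaction of NEMO and KEAP1 deletion was -1.99 ± 0.29, and with all arrays -0.67 ± 0.80 (limma adjusted p = 0.955). The NEMO change was larger in liver than in hepatocytes by 1.82 ± 0.28, and with all arrays by 1.00 ± 0.63 (adjusted p = 0.655).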

How the results depend on the processing

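All values here are counts of called collagens unless stated. The share of all genes called is given above for the fits with all arrays and without the 4 in doubt. It is not given for the other fits, so their counts are not set against it. In NEMO knockout liver against control the count of 0 became 11 without the 4 arrays in doubt, 7 with array weights and 8 with the replicate block, and ranged from 0 to 7 with single arrays left out. For the double knockout liver against control, 0 became 8 without the arrays in doubt, 2 with weights and 8 with the block, with 0 to 10 for single arrays. For KEAP1 knockout liver, 0 became 5 without the arrays in doubt, and single arrays gave 0. Without the arrays in doubt the liver interaction went from 0 to 1, the tissue difference from 0 to 1 and control hepatocytes against control liver from 5 to 3; with the block the latter 2 gave 1 and 11, of these 10 lower. The block moved no other count by more than 1.5 times. Single arrays gave 2 to 7 for control hepatocytes against control liver and 0 to 1 for the tissue difference and the hepatocyte interaction, which weights also took to 1. With only the groups compared, control hepatocytes against control liver gave 2 and KEAP1 knockout hepatocytes 1. Without the intensity trend KEAP1 knockout hepatocytes gave 1, as did each omission of a single array, and double against NEMO knockout hepatocytes gave 1 (Col6a4), as it did among detected genes only. In hepatocytes, single arrays gave 6 to 10 (NEMO knockout), 6 to 8 (double knockout) and 1 to 5 (double against KEAP1 knockout); 0 remained 0 for the other comparisons between knockouts and the liver interaction. Col1a2 in KEAP1 knockout liver was 0.37 with all arrays and ranged from -0.0113 (without liver control 1) to 0.98 (without liver control 3), uncalled in each. Of 795 values of single genes under an alternative, 662 kept direction and side of the threshold, 64 lost a call and 68 gained one. They cover only the 56 pairs of gene and comparison called with all arrays or without the 4 in doubt. The latter fit is itself among the alternatives, so its gains follow from this choice. A pair uncalled with all arrays that stayed uncalled counts as kept, so these numbers do not measure how firm the calls are. Means of probe sets and repeated quantile normalization moved no count by more than 1.5 times.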
